A study of Mus musculus with 12 samples.

Results

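Lipid droplets store triglyceride in hepatocytes, and a small set of genes encodes the proteins that coat them, build them and release their fat. The 10 genes described here were chosen by name from the 31253 symbols that each library lists. They were the perilipin coat genes Plin2, Plin4 and Plin5, the droplet fusion genes Cidea and Cidec, and the droplet formation genes Fitm1 and Fitm2. The other members were the patatin-like lipase genes Pnpla2 and Pnpla3 and the lipase inhibitor gene G0s2. All 10 symbols were found. RNA sequencing had been done on 12 liver samples of male C57BL6 mice, with n = 3 libraries in each of 4 groups. S302A_DEN came from mice with the S302A knock-in of CUGBP1, the RNA-binding protein encoded by Celf1 in which a serine is replaced by alanine, injected with diethylnitrosamine (DEN), a liver carcinogen, at 50 µg per g of body weight and 3 weeks of age. S302A_Ctrl came from knock-in mice with no treatment, WT_DEN from wild-type mice given the same DEN dose, and WT_Ctrl from untreated wild-type mice. Livers of all groups were taken 30 to 38 weeks after the age of injection by 1 label field, whereas another gives 30 to 38 weeks as the age itself. The labels do not say whether a piece held tumour, whether a library is a separate animal, or how the knock-in line was kept, so p-values reflect no more than the spread among these libraries. A changed codon does not show in transcript levels, and the genotype labels could not be checked here.

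A droplet grows as triglyceride collects between the leaflets of the endoplasmic reticulum, a step helped by the FIT proteins (Fitm1, Fitm2), and droplets merge with the help of CIDE proteins. Perilipins coat the surface and control access of lipases. ATGL, the product of Pnpla2, makes the first cut of triglyceride breakdown, G0S2 inhibits it, and PLIN5 holds its cofactor and tethers droplets to mitochondria. In the liver, Plin2 protein follows stored fat, and many of these genes are targets of the PPAR nuclear receptors.

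After DEN the droplet genes did not move as a block. Fitm1 was lower in DEN-treated S302A livers, at 11.4 ± 6.2 TPM, than in DEN-treated wild-type livers, at 47.7 ± 9.12 TPM (SD, n = 3 each). Plin5 rose with DEN, averaged over genotypes, by 1.05 on the log2 scale. Among the members these differences passed the test, a limma fit with p-values adjusted over 12120 genes (adjusted p = 0.039 for Fitm1 and 0.0435 for Plin5). Both calls were fragile: that of Fitm1 ended in 8 of 12 omissions of a library, and that of Plin5 in 10 of 12. In that fit Plin5 passed in neither genotype alone (adjusted p = 0.203 in wild type and 0.258 in the knock-in). G0s2 stood 4.22-fold higher in WT_DEN than in WT_Ctrl with no overlap, but did not pass across all genes. Plin2, the most abundant coat gene, and Pnpla2, the main lipase gene, passed in no comparison, with intervals that allow moderate changes either way.

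The stretches before the transcription starts of the 4 genes on which the results turn are shown because binding motifs for lipid-responsive factors would be looked for there. They are from RefSeq (GRCm38.p6), written 5′ to 3′ on the strand of the gene, for Plin5 from chr17:56117597-56117798, minus strand, and for Plin2 from chr4:86670061-86670309, minus strand. For Fitm1 the stretch is chr14:55575424-55575616, plus strand, and for G0s2 it is chr1:193273218-193273438, minus strand. Each ends before the start given by RefSeq and the gene boundary given by GENCODE vM21. Capitals mark the hexamer AGGTCA or its reverse complement, the core to which nuclear receptors such as PPAR-RXR bind.
Plin5: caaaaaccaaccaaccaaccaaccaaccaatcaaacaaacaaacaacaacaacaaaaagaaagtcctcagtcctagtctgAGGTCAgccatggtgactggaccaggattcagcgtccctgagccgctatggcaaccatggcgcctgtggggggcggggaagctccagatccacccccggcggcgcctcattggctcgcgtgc
Plin2: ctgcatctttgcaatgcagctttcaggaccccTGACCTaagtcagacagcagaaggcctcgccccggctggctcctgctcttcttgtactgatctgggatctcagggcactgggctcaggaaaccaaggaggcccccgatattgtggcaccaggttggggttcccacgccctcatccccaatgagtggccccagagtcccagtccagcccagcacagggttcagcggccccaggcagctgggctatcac
Fitm1: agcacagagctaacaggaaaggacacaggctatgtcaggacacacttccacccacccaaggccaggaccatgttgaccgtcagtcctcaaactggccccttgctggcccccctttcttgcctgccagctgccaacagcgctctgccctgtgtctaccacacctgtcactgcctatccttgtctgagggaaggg
G0s2: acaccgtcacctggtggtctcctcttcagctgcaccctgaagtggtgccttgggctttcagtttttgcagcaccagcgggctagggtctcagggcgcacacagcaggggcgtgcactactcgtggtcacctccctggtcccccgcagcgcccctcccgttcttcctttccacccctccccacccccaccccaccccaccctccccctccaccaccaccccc
The full 250 bases before each RefSeq start were searched on both strands for 9 members (11 starts). Cidea has no window here. AGGTCA occurred in 2 windows, 170 bases before the first start of Plin5 and 218 bases before the start of Plin2, and 14.0% of all 32851 RefSeq windows of that length hold it. The same hexamer repeated in 1 direction after a gap of 1 base (the DR1 form, a subset of the matches above) occurred in 0 member windows and in 0.0335% of all windows. The E-box CACGTG, bound by SREBP and ChREBP family factors, occurred in 0 member windows and in 6.02% of all. Such a match is a run of letters, and its absence says only that these letters are not in the window.

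Levels are TPM, a relative measure corrected for transcript length, so that genes can be compared within a library. No value lay below 1, and a listed 1 was read as 1 or less. By the median over the 12 libraries the order was Plin2 (203 TPM), G0s2 (100.2 TPM), Fitm1 (34.4 TPM), Pnpla2 (19.6 TPM), Plin5 (16.8 TPM), Fitm2 (7.75 TPM) and Cidec (1.71 TPM). Plin4, Pnpla3 and Cidea had a median of 1. Plin2 lay above G0s2 in 11 of 12 libraries and Fitm1 above Pnpla2 in 9, and Pnpla2 lay above Plin5 in 7, so the order of those neighbours is not settled beyond their spread. G0s2 lay above Fitm1, Plin5 above Fitm2, and Fitm2 above Cidec in 12 of 12 libraries. Over the 12 libraries G0s2 ranged 12.5-fold and Fitm1 7.1-fold, while Plin2 ranged 2.9-fold.

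**Figure D1:**
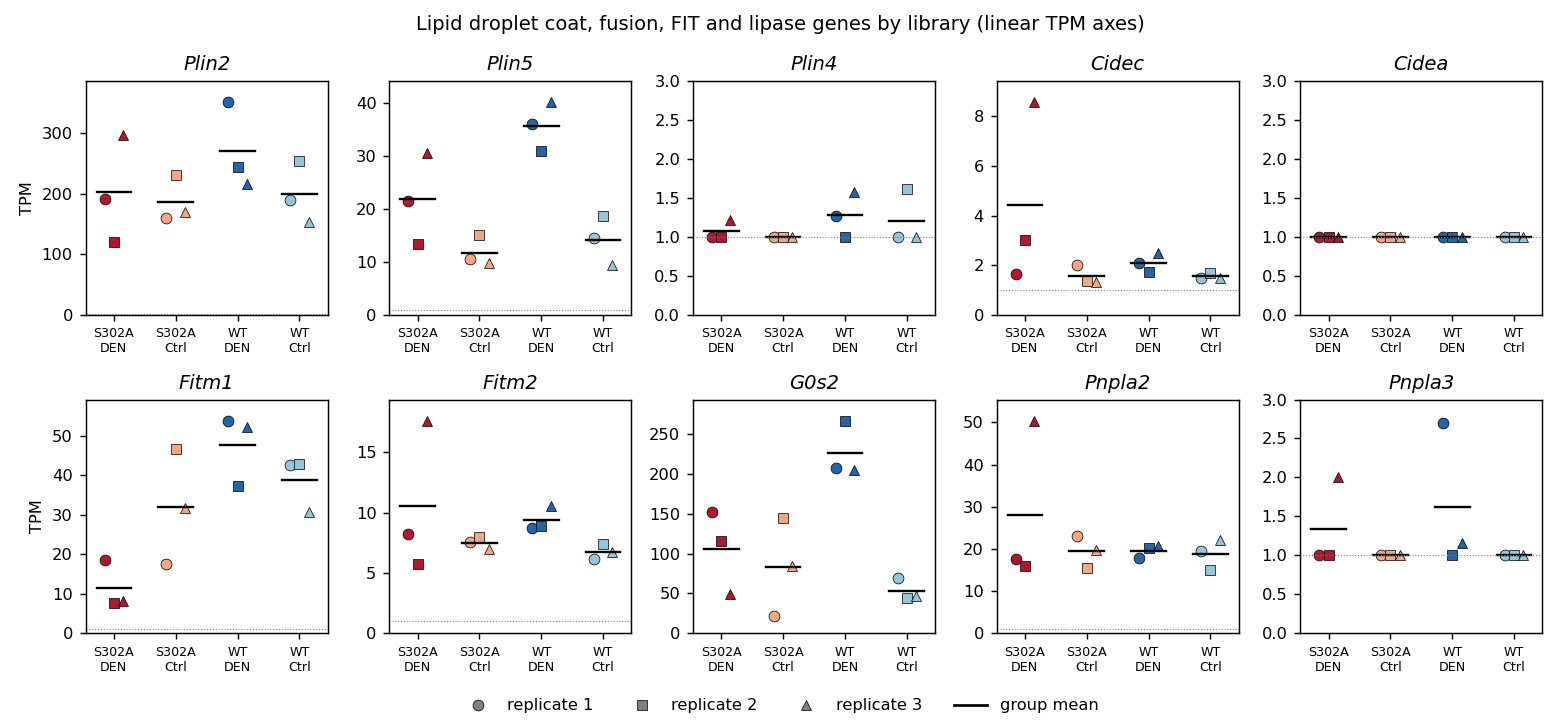
TPM of the 10 members in each of the 12 libraries, on linear axes that start at 0. Points are libraries, marker shapes are replicate numbers, bars are group means and the dotted line is the value of 1. The 3 WT_DEN points of Plin5 lie above all other points of that gene, the lowest of them only just above S302A_DEN replicate 3. That replicate is the highest S302A_DEN point for 7 members.

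S302A_DEN replicate 3 was unlike the other 11 libraries. Across all symbols its Spearman coefficient with each of them was 0.912 to 0.931, against 0.948 to 0.973 for pairs without it. It held 13083 genes above 1 TPM, against 10839 to 11653, and its 20 most abundant genes held 23.8% of the TPM, against 35.9% to 47.6%. Of the 12120 genes tested, 10539 (87.0%) lay above both other S302A_DEN libraries in it, and so did 7 of the 10 members, whereas G0s2 lay below both. Hepatocyte markers were present in every group (10 of 10 genes, summed TPM 58820.3 to 72649 in S302A_DEN, 52952 to 67021 in S302A_Ctrl, 78447 to 94865 in WT_DEN and 50244 to 71049.5 in WT_Ctrl). Adipocyte markers mattered here because fat cells use most of these genes. In every library 7 of 10 (Adipoq, Lep, Retn, Plin1, Cfd, Ucp1 and Tusc5) stood at 1, and the summed level of the list was 21.9 to 102.8 TPM in S302A_DEN, 21.0 to 23.6 in S302A_Ctrl, 20 to 27.8 in WT_DEN and 18.7 to 27.6 in WT_Ctrl. The highest sum was that of replicate 3, where Fabp4, also made by macrophages, stood at 84.85 TPM. Summed macrophage markers were 100.8 to 692.6 TPM in S302A_DEN, 143.5 to 246.1 in S302A_Ctrl, 118.6 to 228.4 in WT_DEN and 112.2 to 254.6 in WT_Ctrl. Stellate cell markers summed to 38.8 to 256.8 TPM in S302A_DEN, 51.3 to 59.8 in S302A_Ctrl, 64.7 to 93.4 in WT_DEN and 56.2 to 73.4 in WT_Ctrl. Their part in the results was not tested, and values without this library stand beside many of the results that use it. In pieces of whole liver, fewer cells of a type and less RNA per cell cannot be told apart.

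Among the coat genes, Plin2 encodes adipophilin, the perilipin found on droplets of nearly all cells. Plin2 gave 190.96, 120.86 and 296.97 TPM in S302A_DEN replicates 1 to 3, against 159.07, 230.25 and 170.25 TPM in S302A_Ctrl. It gave 350.96, 244.38 and 215.45 TPM in WT_DEN, against 189.63, 254.49 and 152.96 TPM in WT_Ctrl. The 4 groups overlapped, with WT_DEN replicate 1 highest and S302A_DEN replicate 2 lowest. The DEN difference in wild type was 0.44 on the log2(TPM + 1) scale (95% interval -0.25 to 1.13, limma adjusted p = 0.833). In the knock-in it was 0.05 (-0.65 to 0.74, adjusted p = 0.944), and without S302A_DEN replicate 3 it was -0.28.

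Plin5 encodes the perilipin of oxidative tissues, which also restrains ATGL. It gave 21.57, 13.42 and 30.63 TPM in S302A_DEN, against 10.47, 15.02 and 9.79 TPM in S302A_Ctrl. It gave 36.08, 30.91 and 40.20 TPM in WT_DEN, against 14.54, 18.62 and 9.41 TPM in WT_Ctrl. All WT_DEN libraries lay above all libraries of the other groups, but WT_DEN replicate 2 (30.91 TPM) only just above S302A_DEN replicate 3 (30.63 TPM). S302A_DEN and S302A_Ctrl overlapped through replicate 2 of each. Averaged over genotypes, Plin5 was higher after DEN by 1.05 (SE 0.22, 95% interval 0.58 to 1.53, adjusted p = 0.0435), and 1 of the 9 members that could be tested was called in that comparison, against 1.34% of all genes in either direction. The difference was 1.31 in wild type (2.52-fold in means, adjusted p = 0.203) and 0.79 in the knock-in (1.86-fold, adjusted p = 0.258), or 0.52 without S302A_DEN replicate 3. The difference between those effects was -0.52 (-1.47 to 0.43, adjusted p = 0.975), and -0.79 without that library. After DEN, Plin5 stood lower in S302A_DEN than in WT_DEN by a log2 value of -0.75 (adjusted p = 0.531), with no overlap, and by -1.02 without it (adjusted p = 0.061). The averaged call ended without any 1 of S302A_DEN replicate 1, the 3 S302A_Ctrl, the 3 WT_DEN or the 3 WT_Ctrl libraries (adjusted p 0.0546 to 0.122, differences over all 12 omissions 0.92 to 1.2), with no filter on low values (adjusted p = 0.229) and with the replicate block (adjusted p = 0.0784). Without S302A_DEN replicate 3 it stood at 0.92 (adjusted p = 0.0245), and the wild-type difference of 1.31 passed (adjusted p = 0.0333).

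Plin4, a perilipin of white fat and muscle, lies next to Plin5 on chromosome 17, 1798 bases away on the same strand. It was above 1 TPM in 4 of 12 libraries: S302A_DEN replicate 3 (1.22 TPM), WT_DEN replicates 1 and 3 (1.27 and 1.57 TPM) and WT_Ctrl replicate 2 (1.61 TPM). Values so near 1 give no fold.

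The balance of the coat genes differed between DEN and untreated livers more plainly than the genes alone. The ratio of Plin2 to Plin5 within a library was 8.85, 9.004 and 9.695 in S302A_DEN and 15.2, 15.3 and 17.4 in S302A_Ctrl. It was 9.73, 7.91 and 5.36 in WT_DEN and 13.04, 13.7 and 16.3 in WT_Ctrl. The 6 DEN libraries (5.36 to 9.73, median 8.93) lay below the 6 untreated libraries (13.04 to 17.4, median 15.3) with no overlap, in both genotypes, S302A_DEN replicate 3 included. This ratio was chosen after the values were seen and carries no test. Of the 21 ratios between the 7 members above 1 TPM in every library, 3 separated DEN from untreated livers. The share over all pairs of genes was not computed, so this count stands without a background. The log2 change of Plin2 over Plin5 was -0.94 in wild type and -0.8 in the knock-in. The others changed more: Plin5 over Fitm1 by 1.08 and 2.34, and Fitm1 over G0s2 by -1.8 and -2.09. Against the other 9769 genes above 1 TPM in every library, 0.246% of Plin2 ratios were lower with no overlap, and 8.05% of Plin5 ratios were higher with no overlap.

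**Figure D2:**
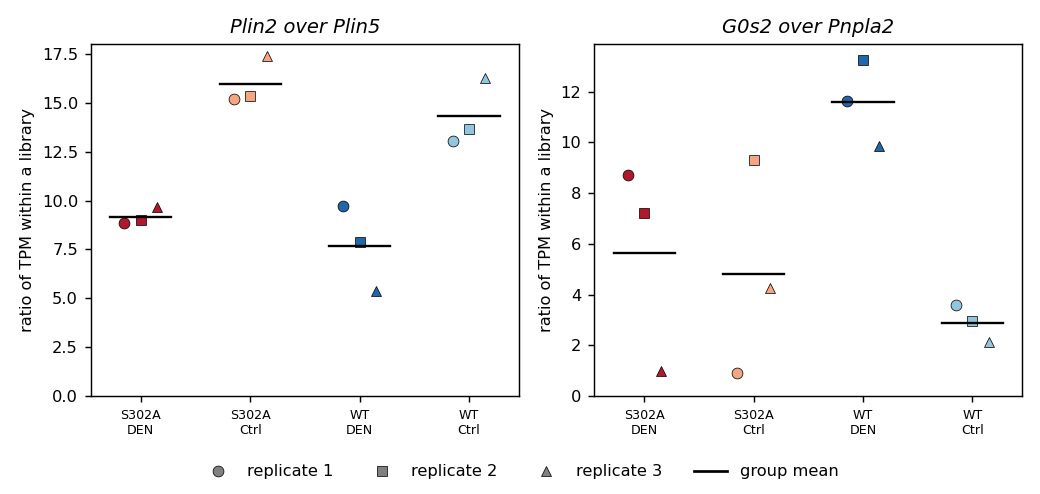
Ratio of Plin2 to Plin5 TPM (left) and of G0s2 to Pnpla2 TPM (right) within each library, on linear axes from 0. Points are libraries and bars group means. The 6 DEN points lie below the 6 untreated points in the left panel, and the WT_DEN points lie above the WT_Ctrl points in the right panel.

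The fusion gene Cidec, also called Fsp27, is known to be induced in fatty liver. It gave 1.65, 3.01 and 8.57 TPM in S302A_DEN, against 1.99, 1.36 and 1.34 TPM in S302A_Ctrl. It gave 2.07, 1.73 and 2.48 TPM in WT_DEN, against 1.5, 1.7 and 1.5 TPM in WT_Ctrl. S302A_DEN replicate 3 was far above the rest, and WT_DEN lay just above WT_Ctrl. The knock-in DEN difference was 0.87 (adjusted p = 0.267), and without S302A_DEN replicate 3 it was 0.35. Cidea, the relative found in brown fat and in steatotic liver, was listed at 1 in 12 of 12 libraries and could not be tested.

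Of the droplet formation genes, Fitm1 is known mainly from skeletal muscle and heart. It gave 18.58, 7.58 and 8.12 TPM in S302A_DEN, against 53.76, 37.19 and 52.08 TPM in WT_DEN. It gave 17.54, 46.66 and 31.69 TPM in S302A_Ctrl, against 42.54, 42.86 and 30.64 TPM in WT_Ctrl. Every S302A_DEN library lay below every wild-type library, and S302A_Ctrl replicate 1 lay within the S302A_DEN range. In S302A_DEN against WT_DEN, Fitm1 was lower by a log2 value of -2.06 (SE 0.37, 95% interval -2.86 to -1.25, adjusted p = 0.039), or 0.24-fold in means. It was the only called gene of the 9 members in that comparison, against 0.38% of all genes in either direction and 0.272% lower. Without S302A_DEN replicate 3 the value was -1.89 (adjusted p = 0.0254). The call ended without S302A_DEN replicate 2, S302A_Ctrl replicate 3, or any 1 of the 3 WT_DEN or 3 WT_Ctrl libraries (adjusted p 0.0532 to 0.205, differences over all 12 omissions -2.44 to -1.85). It ended also with the replicate block (adjusted p = 0.0632), with no filter on low values (0.18) and with the libraries of that contrast alone (0.152).

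The other comparisons of Fitm1 did not pass. In the knock-in the DEN difference was -1.41 (-2.22 to -0.61, adjusted p = 0.104), and -1.24 without S302A_DEN replicate 3. It passed with median-of-ratios scaling, at -1.7 (adjusted p = 0.0458), and with quantile normalization, at -1.74 (adjusted p = 0.0491). In wild type the DEN difference was 0.29 (-0.51 to 1.1, adjusted p = 0.936), and without DEN the knock-in differed from wild type by -0.35 (-1.16 to 0.45, adjusted p = 1). The interaction of genotype and DEN, which tests whether the DEN effects differ, was -1.7 (SE 0.52, -2.84 to -0.57), with an unadjusted p of 0.00667 and a limma adjusted p of 0.52, and without that library it was -1.54. Fitm1 is a short gene on chromosome 14 (55575617 to 55576954, plus strand, mm10), and 109 of its 971 exonic bases (11.2%) overlap the antisense gene Gm15932. The notes do not say whether strand was used, so reads there cannot be told apart. Because Fitm1 is a muscle gene, striated muscle markers were examined: 9 of 10 stood at 1 in every library, and their summed level was 10 to 10.4 TPM in S302A_DEN, 10 in S302A_Ctrl, 10 to 11.2 in WT_DEN and 10 to 10.1 in WT_Ctrl, where a list of 10 genes at 1 sums to 10. The list of 9 bile duct cell markers was highest in the DEN-treated knock-in group, and summed to 70.6 to 156.7 TPM in S302A_DEN, 25.6 to 29.6 in S302A_Ctrl, 30.4 to 39.6 in WT_DEN and 28.6 to 44.6 in WT_Ctrl. Most of that sum was Spp1, at 58.97, 55.33 and 122.19 TPM in S302A_DEN and 16.94 to 25.91 TPM in WT_DEN. The defining markers Krt7, Cldn4, Cftr and Muc1 stood at 1 in every library, and Krt19 and Epcam passed 1 in S302A_DEN replicate 3 alone, at 1.93 and 1.1 TPM. Their part in the Fitm1 result was not tested.

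Fitm2 is the widely expressed FIT gene. It gave 8.2, 5.76 and 17.61 TPM in S302A_DEN, against 7.56, 7.95 and 7.02 TPM in S302A_Ctrl. It gave 8.69, 8.87 and 10.59 TPM in WT_DEN, against 6.13, 7.4 and 6.71 TPM in WT_Ctrl. WT_DEN lay above WT_Ctrl without overlap, by 0.42 (-0.25 to 1.09, adjusted p = 0.834), and S302A_DEN replicate 3 was the highest library. After DEN, Fitm2 differed between S302A_DEN and WT_DEN by 0.02 (-0.65 to 0.69, adjusted p = 1), and by -0.39 without S302A_DEN replicate 3. The FIT genes had unlike values in that comparison, and the difference between them was not tested.

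**Figure D3:**
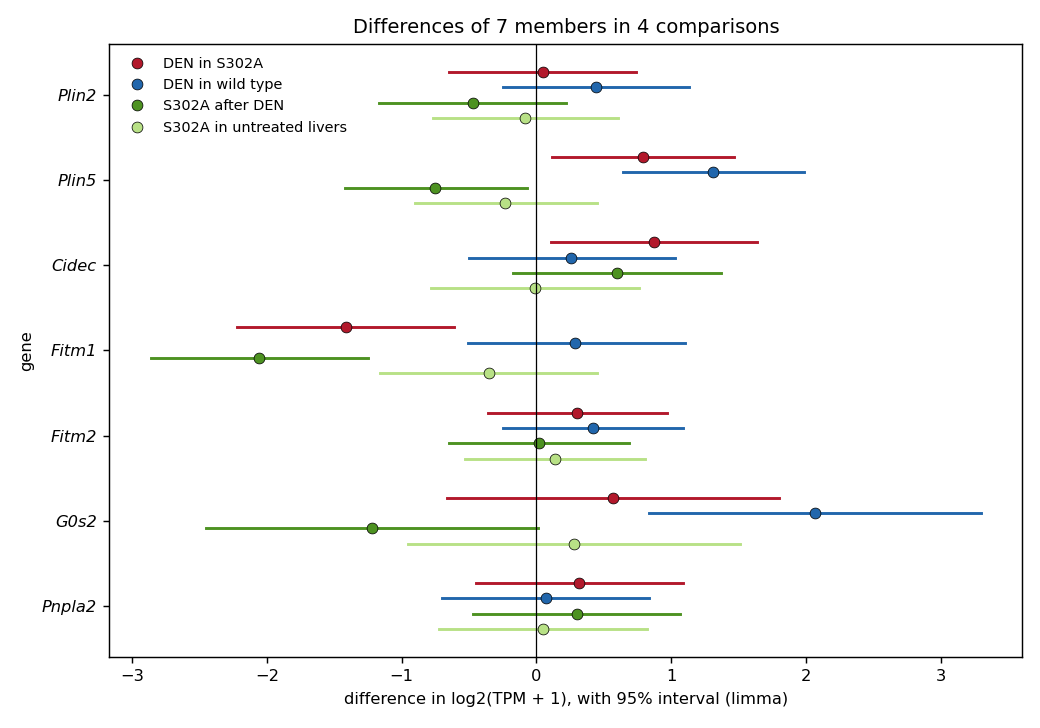
Differences in log2(TPM + 1) of the 7 members above 1 TPM in every library, in 4 comparisons. Points are limma estimates and bars 95% intervals. For Fitm1 the interval of S302A after DEN runs from -2.86 to -1.25, and for G0s2 that of DEN in wild type runs from 0.84 to 3.3.

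Among the lipolysis genes, G0s2 encodes the inhibitor of ATGL. It gave 207.49, 266.69 and 205.34 TPM in WT_DEN, against 69.5, 44.62 and 46.97 TPM in WT_Ctrl. It gave 152.79, 115.67 and 49.79 TPM in S302A_DEN, against 21.28, 144.22 and 84.7 TPM in S302A_Ctrl. WT_DEN lay above every other library, while the knock-in groups overlapped widely. The SD on the log2 scale was 0.83 in S302A_DEN and 1.39 in S302A_Ctrl, against 0.21 in WT_DEN and 0.34 in WT_Ctrl. The DEN difference in wild type was 2.07 (SE 0.57, 95% interval 0.84 to 3.3), 4.22-fold in means, with adjusted p = 0.257. With the 6 wild-type libraries fitted alone it passed (adjusted p = 0.00642), as did Plin5 (adjusted p = 0.0403).

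In the knock-in the DEN difference of G0s2 was 0.57 (-0.66 to 1.8, adjusted p = 0.568). It was 1.04 without S302A_DEN replicate 3, and over all 12 omissions it ran from -0.2 to 1.15. The interaction was -1.5 (-3.24 to 0.24, adjusted p = 0.975) and -1.04 without that library, so the DEN effects were not shown to differ between genotypes. After DEN, G0s2 stood at 0.468-fold in S302A_DEN against WT_DEN, a log2 difference of -1.22 (-2.45 to 0.01, adjusted p = 0.642), with no overlap, and without S302A_DEN replicate 3 the difference was -0.75. Averaged over genotypes the DEN difference was 1.32 (adjusted p = 0.124), and without S302A_DEN replicate 3 it was 1.56 and passed (adjusted p = 0.0457).

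Pnpla2, the gene of ATGL, gave 17.57, 16.03 and 50.37 TPM in S302A_DEN, against 23.17, 15.52 and 19.81 TPM in S302A_Ctrl. It gave 17.86, 20.12 and 20.8 TPM in WT_DEN, against 19.41, 15.04 and 22.04 TPM in WT_Ctrl. Apart from S302A_DEN replicate 3, the 11 libraries lay between 15.04 and 23.17 TPM. The DEN difference was 0.07 in wild type (-0.7 to 0.84, adjusted p = 0.991). In the knock-in it was 0.32 (adjusted p = 0.607), and -0.19 without S302A_DEN replicate 3.

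The inhibitor and its lipase were set against each other within libraries. The ratio of G0s2 to Pnpla2 was 11.6, 13.3 and 9.87 in WT_DEN and 3.58, 2.97 and 2.13 in WT_Ctrl. The geometric mean was 4.07-fold higher in WT_DEN (exact two-sided permutation test, p = 0.1, the smallest that 3 against 3 can give). In the knock-in the ratio was 8.7, 7.22 and 0.989 in S302A_DEN and 0.918, 9.29 and 4.28 in S302A_Ctrl. There the groups overlapped, and the fold was 1.19 (exact permutation p = 0.8). The fold was 2.39 without S302A_DEN replicate 3, with no test. Pnpla3, the relative of ATGL whose human I-to-M variant is tied to fatty liver, was above 1 TPM in 3 libraries, S302A_DEN replicate 3 (2.01 TPM) and WT_DEN replicates 1 and 3 (2.7 and 1.16 TPM). No fold is given for it.

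Counted together, 9 of the 10 members passed the filter of more than 1 TPM in at least 3 libraries. Plin4 and Pnpla3 did so through 4 and 3 libraries, so the counts describe the tested members and not the whole set. The 3 libraries of Pnpla3 were all from DEN-treated mice and every untreated library stood at 1, so its DEN differences could not be negative. Without S302A_DEN replicate 3 Pnpla3 does not pass the filter. For DEN in wild type, 9 of 9 had a positive difference (70.4% of all genes), Pnpla3 among them. The median was 0.33 (0.13 over all genes), which was the value of Pnpla3 itself. The 7 members above 1 TPM in every library ran from 0.07 (Pnpla2) to 2.07 (G0s2). Of the 9, 4 lay higher with no overlap (21.7%), and 0 were called (0.132% of all genes). At an unadjusted p under 0.05 there were 2, Plin5 and G0s2 (8.26% of all genes). For DEN in the knock-in, 8 of 9 were positive (79.3% of all genes), the median was 0.3 (0.27 over all genes), 0 were non-overlapping (15.8% higher) and 0 were called (0.619%), with 3 at an unadjusted p under 0.05 (16.4%). Without S302A_DEN replicate 3 that median was -0.05, and 0 over all genes.

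For S302A after DEN, 3 of 9 differences were positive (60% of all genes), and the median was -0.14 (0.07 over all genes). That median was the value of Pnpla3, next to Plin4 at -0.13, both genes near 1 TPM. The 7 members above 1 TPM in every library ran from -2.06 (Fitm1) to 0.6 (Cidec). Lower with no overlap were 3, namely Plin5, by a narrow gap, Fitm1 and G0s2 (6.19% of all genes). Without S302A_DEN replicate 3 the median was -0.57 (-0.2 over all genes). For S302A in untreated livers the median was -0.01 (-0.07 over all genes), 0 were called (0.033%), 0 lay apart with no overlap (6.96% in either direction) and 0 reached an unadjusted p of 0.05 (1.48%). In the interaction 0 were called (0.0413% of all genes) and 1, Fitm1, had an unadjusted p under 0.05 (5.06%). In the average over treatments 0 were called (0.0165%), with Fitm1 at -1.21 (adjusted p = 0.269), or -1.12 without S302A_DEN replicate 3. Comparisons that share a group are not independent. Median-of-ratios scaling moved the median of all genes in the knock-in DEN comparison to 0.01, against 0.27, and that of the members to 0.01, against 0.3.

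Genes whose profile over the 12 libraries came nearest to a member were found by the root-mean-square difference of centred log2(TPM + 1) values among 9769 genes. For Fitm1 they were Sucnr1, the succinate receptor gene (0.40), and Csrp3, a muscle LIM protein gene (0.43), where the SD of Fitm1 itself was 0.90. Sucnr1 gave 12.26, 10.99 and 9.51 TPM in S302A_DEN, against 52.06, 35.17 and 27.24 TPM in WT_DEN. Csrp3 gave 15.93, 10.93 and 2.77 TPM in S302A_DEN, against 28.22, 22.72 and 24.67 TPM in WT_DEN. In both, each S302A_DEN library lay below each WT_DEN library. These genes were picked for their likeness to Fitm1 over the same libraries, so that order follows in part from the choice. For G0s2 the nearest were AK050117 (0.57) and Gm6484 (0.58), against its own SD of 1.05, and for Plin5 they were Arl4a (0.25) and Rusc2 (0.26), against 0.68. For Plin2 they were Gins1 (0.17) and Uck1 (0.18), against 0.41. Cidec, Fitm2 and Pnpla2 were nearest to Tanc1 (0.14), Osbpl2 (0.10) and Map1lc3b (0.13). Those 3 members were each highest in S302A_DEN replicate 3.

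**Figure D4:**
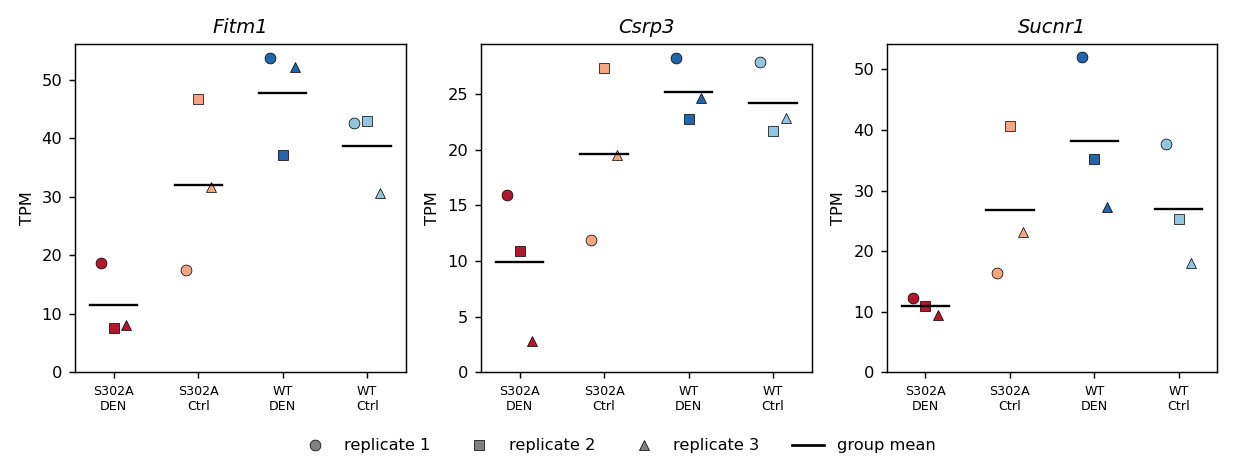
TPM of Fitm1 and of its nearest genes by profile, Csrp3 and Sucnr1, in the 12 libraries, on linear axes from 0. Points are libraries and bars group means. In each panel the 3 S302A_DEN points lie below the 3 WT_DEN points, an order that the choice of genes by likeness to Fitm1 favours.

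Other genes of the droplet pathway were taken from lists by function. Their counts are read against the share of all genes called in either direction, which was 0.132% for DEN in wild type, 0.619% for DEN in the knock-in, 0.38% for S302A after DEN and 1.34% for the DEN average, and against the median of all genes, which was 0.13, 0.27, 0.07 and 0.21 in those comparisons. Without S302A_DEN replicate 3 the medians of all genes were 0.14, 0 and -0.2 in the first 3 of them, and 258, 289 and 700 genes were called, against 16, 75 and 46 with it. Of 16 other droplet proteins tested, 1 was called, in the DEN average. Hilpda, a droplet protein induced by hypoxia that also inhibits ATGL, averaged 5.47 ± 3.09 TPM in S302A_DEN and 1.83 ± 0.439 in S302A_Ctrl, and 4.15 ± 0.578 TPM in WT_DEN and 1.35 ± 0.206 in WT_Ctrl (SD, n = 3 each). Its DEN difference was 1.13 in wild type and 1.1 in the knock-in, each with no overlap, and 1.12 averaged (adjusted p = 0.0286). The knock-in value was 0.74 and the average 0.94 without S302A_DEN replicate 3. The list median was 0.40 for DEN in wild type (0.13 over all genes), 0.17 for DEN in the knock-in (0.27) and 0.07 for S302A after DEN (0.07). The last 2 medians changed sign without S302A_DEN replicate 3, to -0.03 and -0.23.

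Of 20 other lipases and cofactors, 1 rose with DEN in wild type, 1 fell with DEN in the knock-in and 2 were lower in S302A_DEN than in WT_DEN, while 1 rose and 1 fell in the DEN average. Mgll, the monoglyceride lipase gene, averaged 27.4 ± 4.27 TPM in S302A_DEN and 74.9 ± 5.99 TPM in WT_DEN (SD, n = 3 each), a log2 difference of -1.43 (adjusted p = 0.00864). It averaged 39.1 ± 7.17 TPM in S302A_Ctrl and 36.7 ± 3.12 TPM in WT_Ctrl, and the interaction was -1.51 (adjusted p = 0.108), which passed without S302A_DEN replicate 3, at -1.47 (adjusted p = 0.0254). The gene of ANGPTL8, a lipoprotein lipase inhibitor induced by feeding, is listed as Gm6484. It averaged 268 ± 7.03 TPM in WT_DEN and 59.5 ± 28 TPM in WT_Ctrl (2.28, adjusted p = 0.039), and 147 ± 59.2 TPM in S302A_DEN and 105 ± 32.7 TPM in S302A_Ctrl (0.46, adjusted p = 0.496). Ces1f, a carboxylesterase gene with near-identical relatives whose values are uncertain, averaged 92.4 ± 32.8 TPM in S302A_DEN, against 272 ± 24.9 TPM in S302A_Ctrl (-1.6, adjusted p = 0.0188) and 312 ± 26 TPM in WT_DEN (-1.8, adjusted p = 0.0123). The list medians were 0.17, -0.19 and -0.46 for DEN in wild type, DEN in the knock-in and S302A after DEN. They were 0.17, -0.12 and -0.49 without S302A_DEN replicate 3, with 4, 2 and 6 genes called. Without it the Mgll and Ces1f differences after DEN were -1.39 and -1.71, and the knock-in Ces1f difference was -1.51.

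Of 27 PPAR target genes tested, 1 rose with DEN in wild type, 1 rose in the DEN average and 3 were lower in S302A_DEN than in WT_DEN, and the medians were 0.37 for DEN in wild type, -0.13 for DEN in the knock-in and -0.60 for S302A after DEN. Those medians were 0.37, -0.46 and -0.88 without S302A_DEN replicate 3, and 3, 7 and 14 of the 27 were called. Cyp4a10, a fatty acid hydroxylase with close relatives, averaged 15.85 ± 22.3 TPM in S302A_DEN and 138 ± 47.2 TPM in WT_DEN (-3.97, adjusted p = 0.0477). Acot3, a peroxisomal thioesterase also with close relatives, stood at 1, 1 and 2.17 TPM in S302A_DEN, at 5.42, 18.07 and 17.62 TPM in WT_DEN and at 2.36, 1 and 1.15 TPM in WT_Ctrl. It was higher in WT_DEN than in WT_Ctrl by 2.44 (adjusted p = 0.0351) and lower in S302A_DEN than in WT_DEN by a log2 value of -2.5 (adjusted p = 0.0172), or -2.72 without S302A_DEN replicate 3. Fgf21, a fasting hormone gene, gave 13.34, 5.84 and 72.97 TPM in S302A_DEN, against 1.54, 2.51 and 2.09 TPM in S302A_Ctrl. In wild type it stood at 17.36, 9.43 and 5.24 TPM in WT_DEN and at 1.35, 1.16 and 1 TPM in WT_Ctrl, and the averaged DEN difference was 2.49 (adjusted p = 0.0339), or 2 without S302A_DEN replicate 3.

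The lipogenic targets of SREBP1c and ChREBP, which make the fatty acids that droplets store, had the highest median of the lists for DEN in wild type. All 20 were higher in WT_DEN than in WT_Ctrl (70.4% of all genes), with a median of 1.16 and 13 at an unadjusted p under 0.05 (8.26% of all genes in either direction), but 0 were called. There 5 of the 20 were called without S302A_DEN replicate 3. In the knock-in 13 of 20 were higher after DEN (79.3% of all genes), with a median of 0.25 (0.27 over all genes), or 0.15 without that library. All 20 were lower in S302A_DEN than in WT_DEN, where 60% of all genes were higher, with a median of -0.85 (0.07 over all genes), or -0.96 without that library. The gene of triokinase, a fructose pathway enzyme listed as Dak, averaged 321 ± 65.3 TPM in WT_DEN and 140 ± 55.2 TPM in WT_Ctrl, and 170.3 ± 23.4 TPM in S302A_DEN and 125 ± 17.5 TPM in S302A_Ctrl, and its averaged DEN difference was 0.84 (adjusted p = 0.0499), or 0.89 without S302A_DEN replicate 3.

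Of 17 genes of triglyceride synthesis and export, Apoa4, an apolipoprotein gene of lipid export, was called in each DEN comparison. It averaged 1148 ± 464 TPM in S302A_DEN and 123 ± 49.4 TPM in S302A_Ctrl (3.21, adjusted p = 0.00199, or 3.61 without S302A_DEN replicate 3). In wild type it averaged 2277 ± 329 TPM in WT_DEN and 155.5 ± 40.4 TPM in WT_Ctrl (3.89, adjusted p = 0.00219). These calls held in 12 of 12 omissions of a library and ended with no filter on low values (adjusted p = 0.106 in the knock-in and 0.169 in wild type). Agpat2, an enzyme of phosphatidic acid synthesis, had an averaged DEN difference of 0.85 (adjusted p = 0.0484). The list medians were 0.48, 0.32 and -0.48 for DEN in wild type, DEN in the knock-in and S302A after DEN. They were 0.48, -0.03 and -0.66 without S302A_DEN replicate 3, so the knock-in median changed sign.

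Of 20 transcriptional regulators of droplet genes, 0 were called in any of the 7 comparisons, and for DEN 2 reached an unadjusted p under 0.05 in wild type (8.26% of all genes) and 5 in the knock-in (16.4%). With S302A_DEN replicate 3 left out, 2 were called for S302A after DEN and 3 in the DEN average. Over all genes the calls then numbered 700 and 659 of 11883. Ppard, a PPAR receptor gene, gave 13.16, 2.18 and 19.31 TPM in S302A_DEN, against 1.17, 1.3 and 1.9 TPM in S302A_Ctrl (1.99, adjusted p = 0.109, or 1.46 without S302A_DEN replicate 3). Hnf4a, a hepatocyte nuclear receptor gene, averaged 169.7 ± 19.6 TPM in S302A_DEN and 115.5 ± 9.4 TPM in S302A_Ctrl (0.55, adjusted p = 0.154, or 0.53 without it).

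Several of these list calls ended when any 1 of several libraries was left out, at times a library outside the contrast, though the differences kept their sign. For S302A after DEN, the calls of Mgll and Ces1f ended without WT_DEN replicate 2 or 3, and that of Acot3 ended also without S302A_DEN replicate 2 (adjusted p 0.0533 to 0.11). Cyp4a10 kept its call in that comparison only without S302A_DEN replicate 3. The Ces1f call for DEN in the knock-in ended without any 1 of the S302A_Ctrl libraries (0.0544 to 0.112). For DEN in wild type, the Gm6484 and Acot3 calls each ended without 6 of the 12 libraries (0.0505 to 0.213), WT_DEN replicates 2 and 3, WT_Ctrl replicates 2 and 3 and S302A_Ctrl replicate 3 among them for both, WT_DEN replicate 1 for Gm6484 and WT_Ctrl replicate 1 for Acot3. The averaged DEN calls of Hilpda, Fgf21 and Ces1f ended without any 1 of the S302A_Ctrl, WT_DEN or WT_Ctrl libraries, and those of Gm6484, Dak and Agpat2 without any 1 of S302A_DEN replicate 1, S302A_Ctrl replicates 1 and 3, the WT_DEN libraries and WT_Ctrl replicates 2 and 3 (0.0539 to 0.14). The Dak call ended also without S302A_Ctrl replicate 2, and the Agpat2 call without WT_Ctrl replicate 1. With no filter on low values the list calls named here ended (0.106 to 0.487), except that of Mgll for S302A after DEN and that of Apoa4 in the DEN average. For S302A after DEN, the 4 list calls named here ended with the libraries of that contrast alone (0.0976 to 0.214), as did that of Ces1f for DEN in the knock-in (0.112). With median-of-ratios scaling the calls of Gm6484 and Acot3 for DEN in wild type and of Dak and Agpat2 in the DEN average ended (0.0517 to 0.141), and with quantile normalization those of Gm6484, Dak and Agpat2 did (0.0716 to 0.121). With the replicate block the same 4 calls and that of Cyp4a10 for S302A after DEN ended (0.0529 to 0.0809). S302A_DEN replicate 3 ended none of the calls in this paragraph, and its omission gave Cyp4a10 a difference of -5.13 (adjusted p = 0.000339), where its differences over all 12 omissions ran from -5.13 to -3.18.

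**Figure D5:**
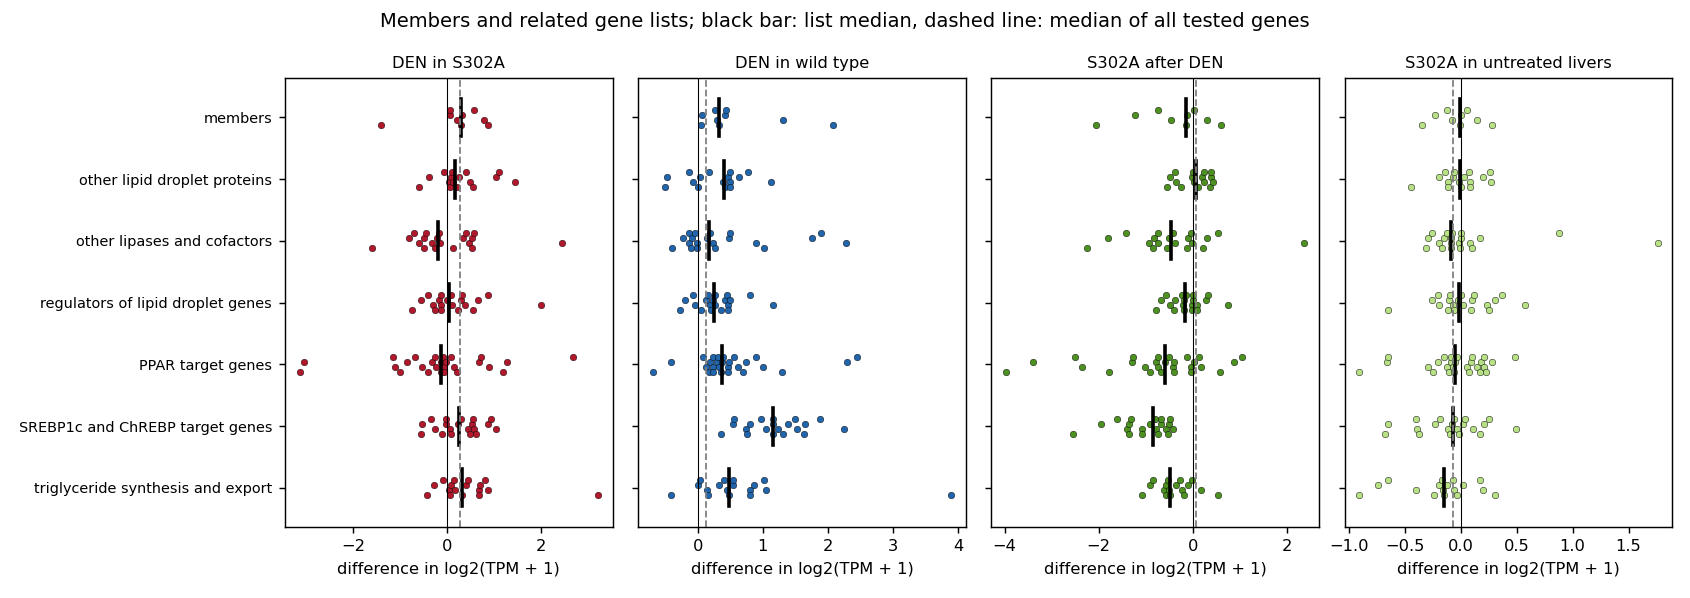
Differences in log2(TPM + 1) of the tested members and of 6 related gene lists in 4 comparisons, with 1 point for each gene. Black bars are list medians and dashed lines the median of all tested genes. For DEN in wild type, the points of the SREBP1c and ChREBP targets all lie above 0 with a median of 1.16, and for S302A after DEN all lie below 0 with a median of -0.85.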

How the data were processed

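Values were the authors' deposited TPM per gene symbol, made with kallisto against mm10 per the submitters' processing notes. The kallisto version and annotation are not given in the sources used here. Per the labels' protocols, total RNA (RNeasy Plus Mini) was made into libraries with TruSeq kits. No deposited TPM lay below 1, which was read as a floor. TPM keeps no depth, so counting precision is unknown. No library pair was identical.

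Log2(TPM + 1) was fitted with limma 3.58.1 in R 4.3.3 as 1 model of 4 groups with empirical Bayes moderation and a trend (8 residual degrees of freedom). Genes above 1 TPM in at least 3 of 12 libraries were tested (12120), two-sided, with Benjamini-Hochberg adjustment over all of them and a threshold of 0.05. The script was tested on simulated data. Means ± SD are of TPM. Named list genes, 1 of which is not reported here, were those that passed in any contrast, at most 4 a list and contrast, or, where none passed, the 2 with the smallest p for DEN. Symbols were matched through older names where needed, and gene positions are from GENCODE vM21 (mm10). Alternatives were other pseudocounts, filters and scalings, the libraries of a contrast alone, a replicate block and leaving out each library. The fit without a pseudocount, and the ratios and list genes without S302A_DEN replicate 3, were chosen after seeing the data. The members and lists were chosen with earlier results of these data known.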

Additional observations from a re-analysis of the deposited data

How the results depend on the processing

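The number of members called was 0 for DEN in wild type and became 2 with the libraries of that contrast alone (0 to 1 over the omissions of a library). For DEN in S302A it was 0 and became 1, Fitm1, with median-of-ratios scaling and 1 with quantile normalization. For S302A after DEN it was 1 and became 0 with no filter, 0 with the replicate block and 0 with the libraries of the contrast alone, where the adjusted p of Fitm1 was 0.18, 0.0632 and 0.152 (0 to 1 over the omissions). For DEN averaged over genotypes it was 1 and became 0 with no filter and 0 with the replicate block, where the adjusted p of Plin5 was 0.0784 (0 to 2 over the omissions). Called genes over all genes moved as well. For DEN in wild type they numbered 16 of 12120, and 147 of 11464 with that contrast alone. For DEN in S302A they numbered 75, and 651 and 680 with the scaling and the normalization. For S302A after DEN they numbered 46, and 9, 31 and 4 with no filter, the block and the contrast alone. For the DEN average they numbered 162, and 2 and 87 with no filter and the block, and 659 of 11883 without S302A_DEN replicate 3. With no filter 31253 symbols are adjusted over, and with a contrast alone 6 libraries give the spread. The cause of the other changes was not tested.

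Some differences changed sign. With median-of-ratios scaling and quantile normalization, Pnpla2 for DEN in wild type became -0.10 and -0.13, and Plin2 for DEN in S302A became -0.27 and -0.16. Fitm2 for DEN in S302A became -0.02 with quantile normalization. For S302A in untreated livers Plin2 became 0.01 with median-of-ratios scaling and Cidec 0.04 and 0.06 with both. Fitm2 for S302A after DEN became -0.03 and -0.07. Over the omissions of a library, the ranges that crossed 0 were -0.08 to 0.18 for Pnpla2 with DEN in wild type, and, with DEN in S302A, -0.28 to 0.37 for Plin2, -0.11 to 0.62 for Fitm2, -0.2 to 1.15 for G0s2 and -0.19 to 0.61 for Pnpla2. In untreated livers they were -0.25 to 0.11 for Plin2, -0.13 to 0.05 for Cidec, -0.67 to 0.01 for Fitm1, -0.3 to 1.06 for G0s2 and -0.1 to 0.19 for Pnpla2. After DEN they were -0.39 to 0.34 for Fitm2 and -0.21 to 0.59 for Pnpla2.

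The labels do not say whether equal replicate numbers mark paired samples. Correlations of deviations from group means ran from -0.19 to 0.28 for the 18 same-numbered pairs and from -0.23 to 0.26 for the 36 others. Pairs above 0.1 numbered 5 of the 18 and 5 of the 36. These values do not settle whether the numbers pair the samples. With the replicate block, called genes numbered 31 for S302A after DEN, against 46, and 87 for the DEN average, against 162. Called genes over all genes for DEN in wild type were 16, against 147 with that contrast alone and 258 without S302A_DEN replicate 3, and for DEN in S302A 75 (51 higher, 24 lower), against 651 (306 higher, 345 lower) with median-of-ratios scaling.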
